A study of Gallus gallus with 71 samples.

Results

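Female and male broiler chicks were compared in the nCPa, the nucleus of the hippocampal commissure, at hours 0 and 12 of a heat challenge. The members are the nCPa libraries that the sample labels place at these hours, which were 16 of the 71 libraries in the count table, 8 from females and 8 from males. The chicks were Hubbard x Cobb-500 broilers aged 4 days, sexed by their gonads, and RNA came from tissue punches of the brain. Each sex held 4 chicks given embryonic heat conditioning (EHC) and 4 control chicks, with 2 of each treatment at hour 0 and 2 at hour 12. EHC eggs were kept at 39.5 degrees C for 12 h per day from embryonic day 7 to 16. Until transfer to a common hatching incubator, they were otherwise kept at 37.5 degrees C, and control eggs at 37.5 degrees C throughout. All chicks of hour 12 had been held at 36 degrees C for 12 h, and those of hour 0 had not been challenged. The 8 nCPa libraries of hour 2 were left out, because a sex label there disagreed with the genes found in 1 sex only.

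In birds the female carries a Z and a W chromosome and the male a pair of Z chromosomes. Genes on the W chromosome are therefore transcribed in females only. Birds have no chromosome-wide silencing of a Z chromosome like that of the mammalian X, and many Z-linked genes are known to give less RNA in females than in males. The nCPa is a small septal cell group that holds neurons making corticotropin-releasing hormone, the peptide that opens the avian stress response. The deposited table names genes by Ensembl identifier alone. Symbols could be paired with 93 identifiers, all of them genes that the study listed for other comparisons of these same samples, so nearly all genes below are given as classes. None of the fixed markers of neurons, glia, vessels, choroid plexus or blood cells could be paired, and the labelled tissue was not checked against them. In a punch, fewer cells of a type and less RNA per cell cannot be told apart.

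The sex labels were checked first, with genes chosen outside the nCPa. They were chosen by the same labels, in punches that the study took from the same chicks, so the check is not independent of the labels. In the POAH and PVN (preoptic anterior hypothalamus and paraventricular nucleus) of hours 0 and 12, 68 genes were limited to females. Each held at least 1 CPM in the lowest of 15 female libraries and at least 5 times the highest of 16 male libraries. Printed CPM are counts scaled to library size with TMM normalization factors. Summed over these 68 genes, the nCPa of the 8 females held 2007, 2163 and 2416 CPM (lowest, median and highest library), against 6.17, 18.4 and 37.6 CPM in the 8 males. The sexes did not overlap, and the sum varied little among females, at 2048 to 2416 CPM at hour 0 and 2007 to 2230 CPM at hour 12. The mirrored rule, genes limited to males, found 0 genes. Total counts of the 16 libraries ran from 1956211 to 9370799. At hour 0 every female library (2541480 to 3914390 counts) was shallower than every male library (4504804 to 9370799 counts), whereas at hour 12 females (3372927 to 5130983) and males (1956211 to 4969739) overlapped. The part of depth in the sex difference was not tested, and values are therefore also given within each hour.

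**Figure D1:**
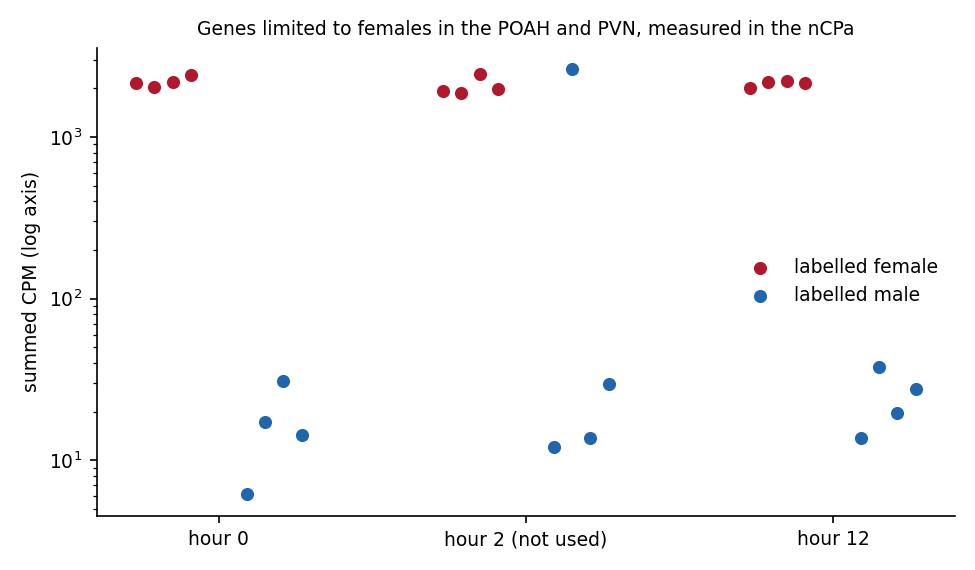
Summed CPM, on a log axis, of the 68 genes limited to females in the POAH and PVN, for each nCPa library by hour and labelled sex; each point is a library. At hours 0 and 12 the females sit between 2007 and 2416 CPM and the males between 6.17 and 37.6 CPM; at hour 2, which was not used, 1 library labelled male stands at 2626 CPM.

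Across the 20363 genes tested, 443 genes (2.18%) differed between female and male chicks with an adjusted p no greater than 0.1 (quasi-likelihood test in edgeR, Benjamini-Hochberg adjustment, treatment and time as covariates). Of these, 299 genes (1.47% of genes tested) were lower in females and the rest (0.707%) were higher. The sets had different shapes. The genes called higher in females were mostly absent or nearly absent in males. Most of those called lower were expressed in both sexes and lower by a moderate and similar amount, though 4 had a log2 fold change under -2. The contrast between the sets is bounded by the calling, since a moderate difference is called mainly in genes with enough counts. A gene absent in males also has a low mean CPM by construction. It could pass the count filter (over 1 CPM in at least 4 of the 71 libraries) through female libraries alone. In the more abundant part of the genes tested (mean log2 CPM of at least 3.68, 10182 genes), 36 genes were higher and 250 lower in females, and in the less abundant part (10181 genes) 108 were higher and 49 lower. By CPM alone, all 8 females lay above all 8 males in 102 genes (0.501% of genes tested) and below them in 138 genes (0.678%). The 102 genes were all among those called higher, and 137 of the 138 were among the 299 called lower.

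**Figure D2:**
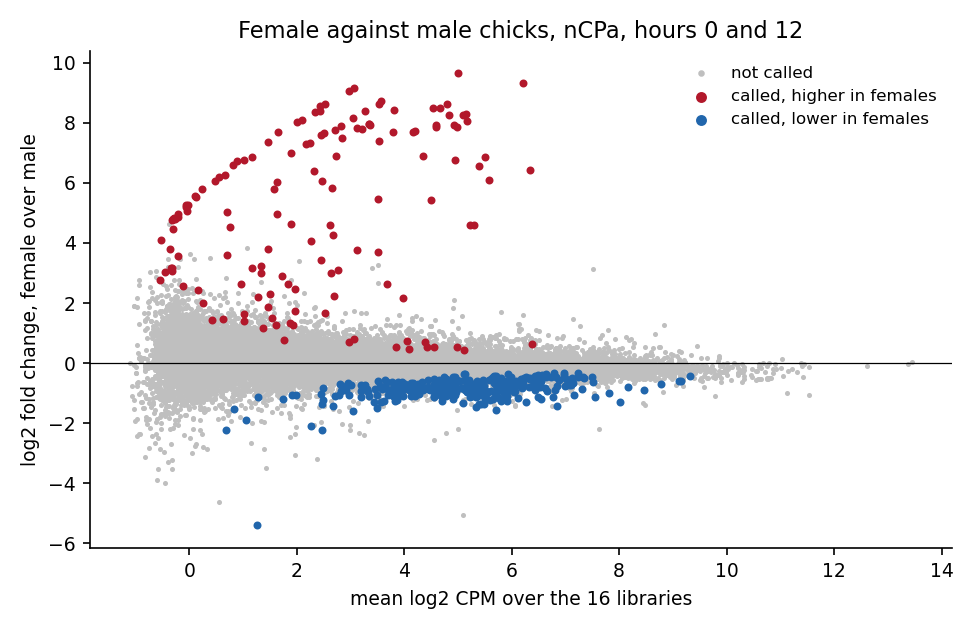
Log2 fold change of females over males against mean log2 CPM over the 16 nCPa libraries, 1 point per gene tested. The genes called higher in females reach a log2 fold change of 9.64, and most of the 299 called lower form a narrow band from -1.5 to -0.3 at mid to high abundance.

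Genes higher in females were led by a female-limited class. The fitted log2 fold change of the genes called higher had a median of 5.12 (quartiles 2.86 and 7.68), and 91 genes exceeded 4, 41 lay from 1 to 4, and 12 lay under 1. In males 33 of these genes had no count in any of the 8 libraries, and 83 had at most 3 counts in each library. For the 33 genes the fold is only a lower bound. Set against 3 counts over the male group, females were at least 6.77-fold to at least 221-fold higher in them, and with these genes at their bound the median log2 fold change of the class was 4.55. Genes with any male count, however low, kept their fitted fold in that median. Taken over the class, the median CPM was 9.09 in females and 0 in males. All 68 genes limited to females in the POAH and PVN were among those called higher in the nCPa, though they were chosen by the same sex labels. Their median log2 fold change was 7.71 (3.75 to 9.64) against 0.01 over all genes tested. These 68 genes summed to 2163 CPM in the median female library. Gene by gene, the highest female library held a median of 2.02 times the lowest.

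The 2 genes without a symbol that had the smallest adjusted p in this direction show the pattern. ENSGALG00010012927 had 53.7, 62.3 and 80.8 CPM in females (lowest, median and highest library), against 0, 0 and 0.211 CPM in males. Every female library was far above every male library, with 1934 counts in females and 2 counts in males in all. The ratio of the groups was 1310 (95% interval of the counting error 362 to 10824), and the adjusted p was 8.1e-12 (edgeR). Set against 3 counts over the male group, the ratio was 873. ENSGALG00010000262 had 58.0, 70.3 and 79.1 CPM in females, against 0, 0.0734 and 0.439 CPM in males. Again the sexes did not overlap, with 2116 counts in females and 8 in males, a ratio of 358 (182 to 831) and an adjusted p of 1.1e-11 (edgeR).

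Genes called lower in females had more uniform fold changes, within what the test can call. The log2 fold change of the 299 genes had a median of -0.82, that is 56.8% of the male level, and 291 genes (97.3%) lay between -1.5 and -0.3. Their 10th and 90th percentiles were -1.21 and -0.48, and the lowest was -5.40. Taken over the 299 genes, the median CPM was 24.3 in females and 40.9 in males. None was at 0 in all females, but 1 had at most 3 counts in each female library. The spread within a sex was of the same order as the difference: the highest library held a median of 1.78 times the lowest in females and 1.66 times in males. Among the 6715 genes with a mean log2 CPM of at least 5, 384 had a log2 fold change between -1.2 and -0.5, of which 110 were called, and 129 lay in the mirrored range from 0.5 to 1.2.

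ENSGALG00010008243 had 29.1, 31.2 and 33.7 CPM in females, against 52.6, 61.3 and 68.1 CPM in males. The lowest male library stood well above the highest female library. Its log2 fold change was -0.96 (SE 0.07) with an adjusted p of 2.6e-07 (edgeR). ENSGALG00010014083 had 17.2, 22.7 and 31.2 CPM in females, against 42.3, 48.8 and 62.2 CPM in males. The sexes did not overlap in it either, and its log2 fold change was -1.14 (SE 0.10) with an adjusted p of 9.0e-07 (edgeR). The identifiers of these 4 genes could not be paired with a symbol or a chromosome.

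**Figure D3:**
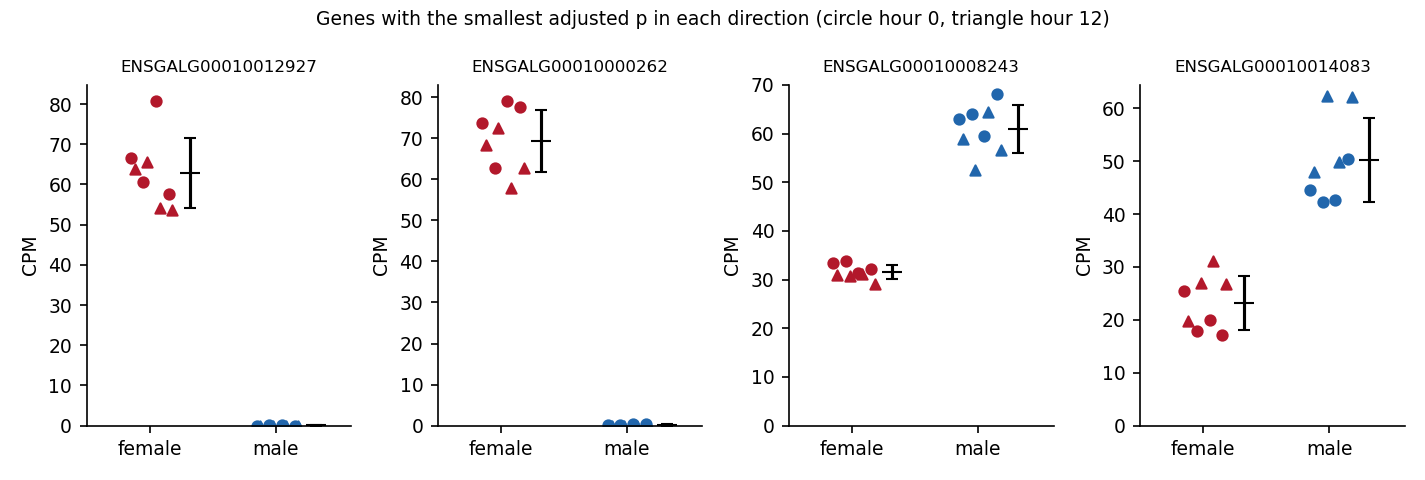
CPM of the 2 genes without a symbol with the smallest adjusted p in each direction, by sex; circles are hour 0, triangles hour 12, and bars the mean and SD of 8 libraries. The pair on the left averages 62.9 and 69.3 CPM in females and 0.0509 and 0.149 CPM in males, and the pair on the right 31.6 and 23.2 CPM in females and 60.9 and 50.3 CPM in males.

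Since the chicks of hour 0 and hour 12 were different birds, the difference at either hour was measured in the other. At hour 0 alone 294 genes (1.44%) were called, 0.712% of genes tested being higher and 0.732% lower in females. At hour 12 alone 132 genes (0.648%) were called, 82 (0.403%) higher and 50 (0.246%) lower in females. Of the genes lower at hour 0, 97.3% were negative at hour 12 and 83.2% were negative with an unadjusted p under 0.05, against 1.95% of all genes tested. Their median log2 fold change was -1.0 at hour 0 and -0.81 at hour 12, and 43 of them (28.9%) were called at hour 12. In each hour-12 library, the median over these genes of log2 CPM minus the gene's mean was below 0 in the 4 females (-0.53 to -0.17) and above 0 in the 4 males (0.18 to 0.62). The library closest to the males was Sample_146, a control female, at -0.17.

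Genes higher in females at hour 0 split by size. Of the 82 with a log2 fold change over 4 at hour 0, all 82 were positive at hour 12 and 70 were called, with medians of 7.47 at hour 0 and 7.02 at hour 12. Of the 63 with a log2 fold change up to 4, 46 were positive at hour 12 and 10 were called, with medians of 1.86 at hour 0 and 0.25 at hour 12. Both the calls and the grouping by size used the hour-0 values, where every female library was shallower than every male library. The part of either in the smaller folds at hour 12 was not tested. In the other direction of choice, all 82 genes higher at hour 12 were positive at hour 0 and 80 were called there, and all 50 genes lower at hour 12 were negative at hour 0 and 43 were called. A test of the difference between hours (sex by time) called 0 genes with edgeR and 0 with DESeq2, and 691 genes (3.39%) had an unadjusted p under 0.05 (edgeR), among them 11 of the 443. These misses do not show that the sex difference was equal at the hours.

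**Figure D4:**
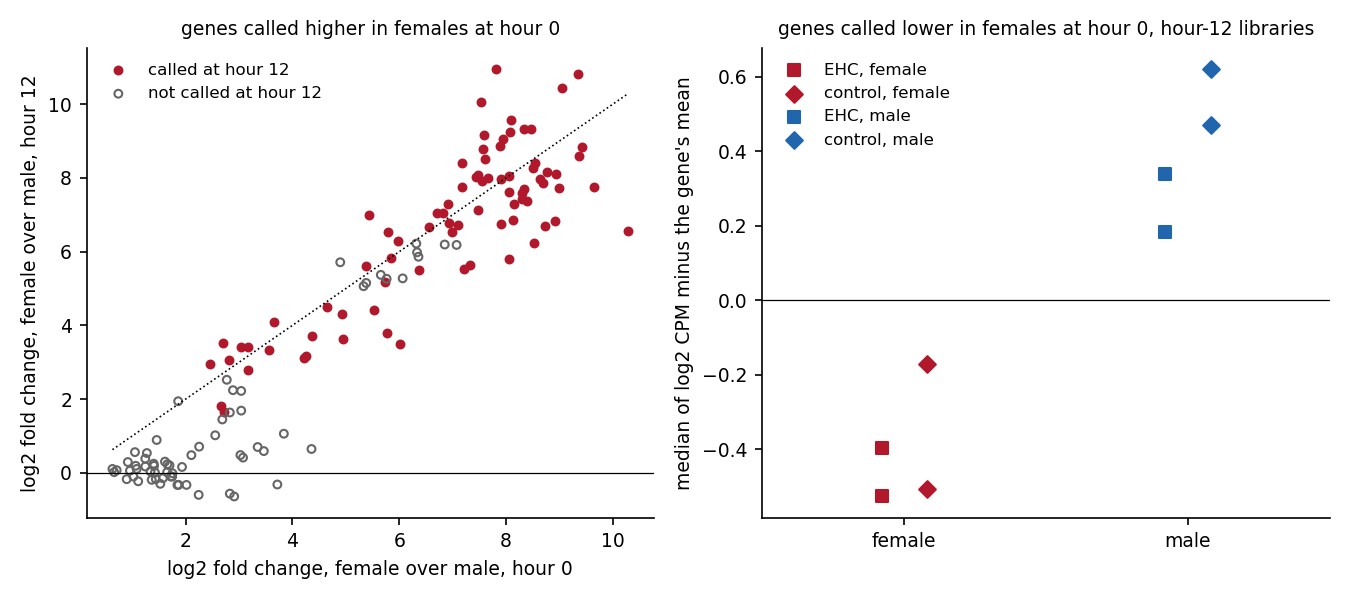
Left, log2 fold change of females over males at hour 0 and at hour 12 for the genes called higher at hour 0, with the dotted line marking equal values. Right, for the genes called lower at hour 0, the median in each hour-12 library of log2 CPM minus the gene's mean over the libraries; the 4 females lie between -0.53 and -0.17 and the 4 males between 0.18 and 0.62.

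EHC and control chicks were also fitted apart. In EHC chicks 86 genes (0.422%) were higher and 82 (0.403%) lower in females, and in control chicks 81 (0.398%) were higher and 64 (0.314%) lower. Of the 86 genes higher in EHC females, all 86 were positive in control chicks and 78 were called. Of the 82 lower in EHC females, all 82 were negative in control chicks, 44 were called, and the median log2 fold change was -0.96 in EHC chicks and -0.93 in control chicks. In the other direction of choice, all 81 genes higher in control females were positive in EHC chicks and 78 were called. Of the 64 lower in control females, 62 were negative in EHC chicks and 44 were called. A test of sex by treatment called 0 genes with edgeR and 0 with DESeq2. In it 285 genes (1.4%) had an unadjusted p under 0.05 (edgeR), among them 13 of the 443 (2.93%), which were called on the same libraries. The lack of calls does not show that the sex difference was equal in EHC and control chicks.

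The nCPa was set beside the POAH and the PVN, which the study punched from the same chicks, so these are not separate birds. Labels name no chick, and neighbouring library numbers gave 16 sets of nCPa with POAH and 14 of nCPa with PVN. By the same fit 527 genes (2.59%) were called in the POAH and 1433 (7.04%) in the PVN, with 0.992% higher and 1.6% lower in females in the POAH and 2.82% higher and 4.21% lower in the PVN. Of the genes higher in nCPa females, 112 were also higher in the POAH (77.8% of the nCPa genes and 55.4% of the POAH genes) and 113 in the PVN (78.5% and 19.7%). Of the 299 lower, 227 were also lower in the POAH (75.9% and 69.8%) and 262 in the PVN (87.6% and 30.5%). Taken the other way, 265 genes were lower in females in both the POAH and the PVN. All 265 were negative in the nCPa, where 216 (81.5%) were called, and their median log2 fold change was -0.83. Of the genes higher in both other nuclei, 110 (88%) were called higher in the nCPa.

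No gene was called as differing in its sex effect between the nCPa and another nucleus. Sex by nucleus gave 0 genes with edgeR and 0 with DESeq2 against the POAH (404 genes, 1.98%, with an unadjusted p under 0.05 in edgeR) and 0 with either tool against the PVN (1481 genes, 7.27%). Of the genes called higher in nCPa females, 15 (10.4%) had such a p against the POAH and 17 (11.8%) against the PVN. Of the 299 called lower, 6 (2.01%) and 22 (7.36%) did. These genes were called on nCPa values that the test also uses. For the 299 genes the median log2 fold change was -0.82 in the nCPa, against -0.75 for POAH and -0.78 for PVN. ENSGALG00010008243 had log2 fold changes of -0.96 in the nCPa, against -0.87 for POAH and -1.03 for PVN, and ENSGALG00010014083 had -1.14 in the nCPa, against -0.92 for POAH and -0.97 for PVN. No gene can thus be called particular to the nCPa from these data.

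None of the 93 genes with a symbol was called between the sexes in the nCPa (edgeR), where 2.18% of all genes were. Of the 93, 4 (4.30%) had an unadjusted p under 0.05 (edgeR), against 13.1% of all genes tested. The study listed these 93 genes for other comparisons of the same samples, so they do not stand for all genes. CHAD, which encodes the cartilage matrix protein chondroadherin, had 2.43, 4.16 and 19.4 CPM in females, against 1.06, 2.44 and 5.28 CPM in males. The sexes overlapped, with 4 of 8 females above every male. The log2 fold change was 1.30 (SE 0.42) with an adjusted p of 0.21 (edgeR) and of 0.087 by DESeq2, by which CHAD was the only one of the 93 called. TIMP2, an inhibitor of matrix metalloproteinases, had 99.9, 120 and 204 CPM in females, against 116.2, 156 and 206 CPM in males, with a log2 fold change of -0.37 (SE 0.14) and an adjusted p of 0.29 (edgeR). LSM12, an RNA-binding Sm-like protein, and STK25, a serine/threonine kinase, had log2 fold changes of -0.33 (SE 0.14) and -0.22 (SE 0.10), each with an adjusted p of 0.36 (edgeR). None of CHAD, TIMP2, LSM12 and STK25 was called in the POAH or the PVN (edgeR). Log2 fold changes there were -0.43 and 0.33 for CHAD, -0.41 and -0.21 for TIMP2, 0.13 and 0.09 for LSM12, and -0.006 and -0.06 for STK25. In a two-sided exact permutation test of log2 CPM, with sex labels exchanged within each treatment and hour, the p of these 4 genes, which were picked for a low p on the same libraries, was, not adjusted, 0.042 for CHAD, 0.023 for TIMP2, 0.032 for LSM12 and 0.012 for STK25.

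PSAT1 was the only gene of the 92 with a RefSeq position that lay on the Z chromosome (GRCg7b, Z, 38582875 to 38598178), and none lay on W. It encodes phosphoserine aminotransferase, an enzyme of serine synthesis. PSAT1 had 186, 248 and 392 CPM in females, against 189, 239 and 366 CPM in males. The ranges nearly coincided, and females differed from males by -0.05 on the log2 scale (SE 0.17, with 0.92 as the adjusted p in edgeR). In EHC chicks of hour 0 the females had 282 and 392 CPM and the males 272 and 237 CPM, and in EHC chicks of hour 12 the females had 203 and 186 CPM and the males 222 and 366 CPM. In control chicks of hour 0 the females had 298 and 218 CPM and the males 237 and 241 CPM, and in control chicks of hour 12 the females had 278 and 198 CPM and the males 324 and 189 CPM. VIPR1, a receptor for vasoactive intestinal peptide and the only one of 33 listed neuropeptide and receptor genes that could be paired, had 10.8, 16.1 and 26.8 CPM in females, against 9.76, 20.2 and 25.4 CPM in males. The sexes overlapped in it, and its log2 fold change of -0.26 (SE 0.22) had an adjusted p of 0.58 in edgeR. HSPA9, the mitochondrial chaperone mortalin and the only one of 21 listed heat shock genes that could be paired, had 74.6, 92.6 and 204 CPM in females, against 87.5, 114 and 151 CPM in males (log2 fold change -0.23, SE 0.18; adjusted p 0.57, edgeR). SCG5, a chaperone of prohormone convertase 2 in neuroendocrine cells, had 53.2, 141 and 259 CPM in females, against 43.5, 191 and 285 CPM in males. Its log2 fold change was -0.34 (SE 0.32) with an adjusted p of 0.62 (edgeR). By the same fit HSPA9 was called lower in females in the POAH (-0.35, adjusted p 0.073, edgeR), not in the PVN. SCG5 was called lower in the PVN (-0.55, adjusted p 0.027, edgeR), not in the POAH.

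By function, no group of named genes held a member called by edgeR in the nCPa, and by DESeq2 CHAD, one of the matrix genes, was called. The 4 V-ATPase subunits measured, parts of the pump that acidifies vesicles, were all negative (median log2 fold change -0.38), led by ATP6V1H at 43.5, 58.7 and 122 CPM in females, against 42.1, 87.0 and 123 CPM in males. These ranges overlapped, and the smallest adjusted p among the 4 was 0.41 (edgeR). In the POAH ATP6V1C1 (-0.51, adjusted p 0.080) and ATP6V1G1 (-0.37, 0.082) were called lower in females, and in the PVN ATP6V1H (-0.38, 0.082, edgeR). Each was called in 1 of these nuclei only, and ATP6V1D in neither. Within hours the median of the 4 was -0.65 at hour 0, with all 4 negative, and -0.01 at hour 12, with 3 negative. The 8 nuclear subunits and assembly factors of complex I, the first enzyme of the respiratory chain, were centred near 0 (median -0.02, from NDUFS7 at -0.25 to NDUFB9 at 0.10) over both hours, but had a median of -0.27 at hour 0, with 7 of 8 negative, and of 0.31 at hour 12, with 1 of 8 negative. One of them, NDUFA9, was called lower in females in the POAH (-0.31, adjusted p 0.083, edgeR), not in the PVN. Of 7 genes of the matrix or of secreted proteins, 3 were positive and 4 negative in the nCPa. Among these, MFAP5 was called lower in females in the PVN (-0.55, adjusted p 0.059, edgeR), not in the POAH. Other named genes called in the PVN were FAM46A, lower in females (-0.60, 0.052), and PKD1, higher (0.29, 0.058, edgeR). Of the 93 genes, those called in the POAH were thus ATP6V1C1, ATP6V1G1, HSPA9 and NDUFA9, where 2.59% of all genes tested were called. Those called in the PVN were ATP6V1H, SCG5, MFAP5, FAM46A and PKD1, where 7.04% were. So few calls among 93 genes do not set them apart from all genes. The 3 genes of nuclear export (XPO6, XPO7, NUP214) had a median of -0.05, the 5 proteasome subunits and ubiquitin ligases -0.09, and the 3 stress granule proteins (G3BP1, UBAP2L, CAPRIN2) -0.06. Over all genes tested the median was 0.01, and by hour it was 0.006 at hour 0 and 0.03 at hour 12. The 93 genes with a symbol, as a set, also had a lower median at hour 0 (-0.16, with 65 negative) than at hour 12 (0.08, with 33 negative). A higher fold at hour 12 than at hour 0 was thus not particular to the V-ATPase or complex I genes.

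**Figure D5:**
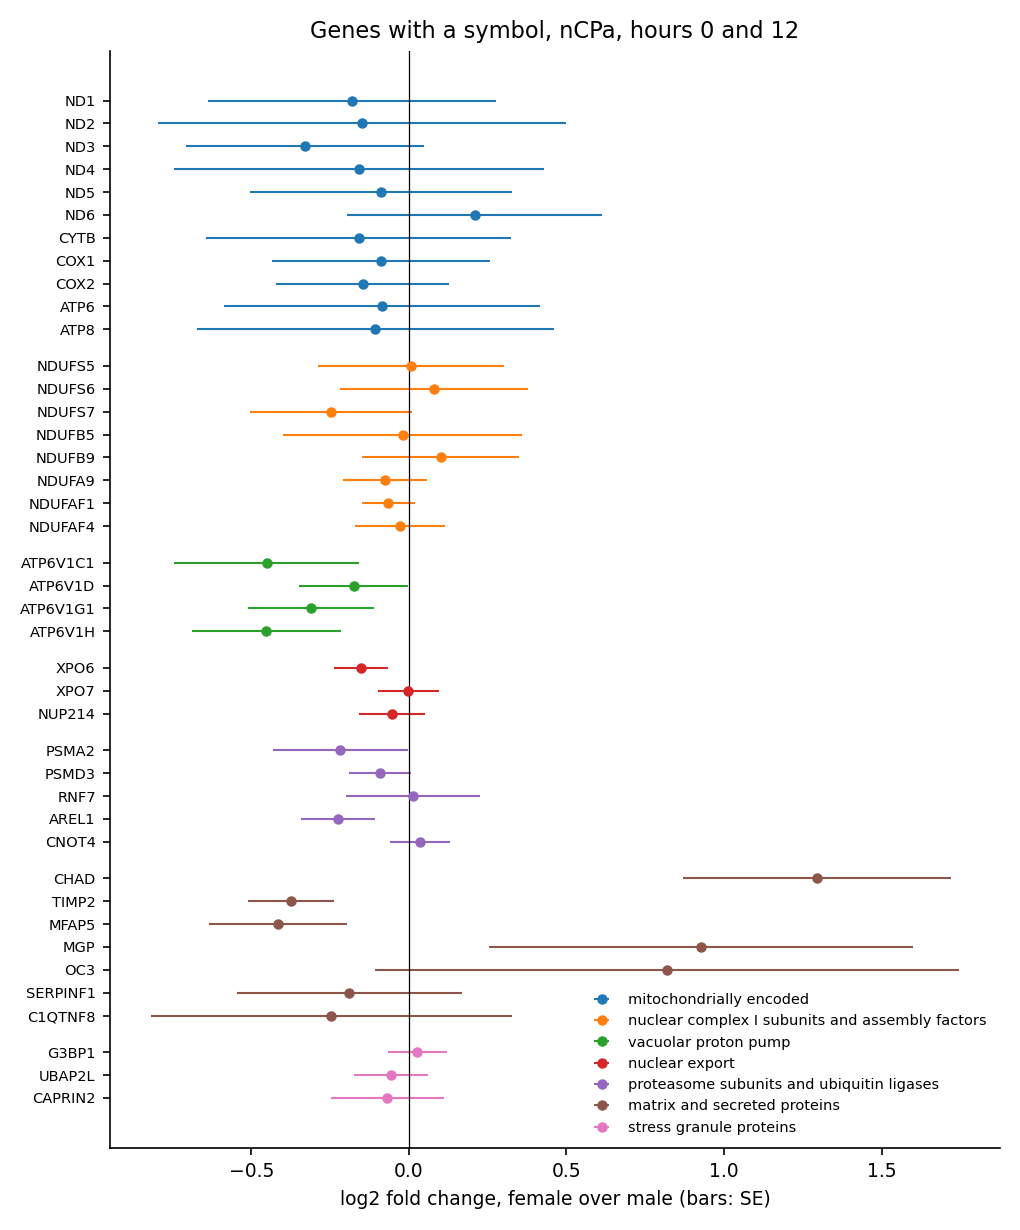
Log2 fold change of females over males for the named genes grouped by function, with bars giving the SE of the edgeR fit over 16 nCPa libraries. No gene shown was called by edgeR (CHAD was by DESeq2); CHAD stands highest at 1.30, and the vacuolar proton pump subunits lie between -0.45 and -0.17.

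The mitochondrially encoded mRNAs, which give subunits of the respiratory chain and ATP synthase, varied more between libraries than between sexes. The 11 genes that could be paired summed to 3972, 10036 and 88653 CPM in females, against 8518, 11848 and 66348 CPM in males. High sums came at hour 12, in the control female Sample_146 (88653 CPM), the control male Sample_125 (66348 CPM) and the control female Sample_143 (39627 CPM). Of the 11 genes 10 had a negative log2 fold change (median -0.15), and 0 were called. At hour 0 all 11 were negative (median -0.67) and at hour 12 all 11 were positive (median 0.37), with 0 called at either hour and 0 called as differing between hours (edgeR). The 11 genes were measured in the same few libraries and rose together in those with high sums, so their shared signs are not separate results. The encoded complex IV subunit COX1 had 1640, 3595 and 22308 CPM in females, against 3333, 4178 and 16335 CPM in males, and its log2 fold change of -0.09 (SE 0.35) had an adjusted p of 0.93 in edgeR. Without Sample_146, 1367 genes were called between the sexes (537 higher, 830 lower), among them all 443 and, of the named genes, CHAD (log2 fold change 1.38, adjusted p 0.096), TIMP2 (-0.47, 0.052) and HSPA9 (-0.41, 0.096; edgeR). Without all 3 of these libraries, an alternative chosen after seeing the data, 435 genes were called, 170 higher and 265 lower in females. Sample_173, a male, was then the only control library of hour 12, so this fit could not compare the sexes in control chicks of that hour. Genes called with all 16 libraries and in each of the 16 fits without a library numbered 335, of which 112 were higher and 223 lower in females.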

How the data were processed

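RNA of nCPa punches was sequenced as stranded, ribosome-depleted libraries. The authors trimmed reads with Trimmomatic, aligned them with HISAT2, kept unique matches with SAMtools, removed duplicates and counted with featureCounts on the Ensembl annotation of GRCg7b. The deposited table holds raw counts for 30108 genes in 71 libraries (910033 to 9370799 counts each), and precision falls with shallower libraries. From these counts, genes over 1 CPM in at least 4 of the 71 libraries were kept (20363). The sexes were compared with edgeR 4.0.16 (R 4.3.3; TMM, quasi-likelihood test, Benjamini-Hochberg adjusted p at most 0.1) on 16 libraries with terms for sex, treatment and time, and interaction terms tested time, treatment and nucleus. Alternatives used DESeq2 1.42.0, other size factors, filters, covariates and libraries. Each SE was obtained by dividing a log2 fold change by the root of F. Single genes were further tested by exact permutation of log2 CPM (prior count 2). Printed CPM carry TMM factors from all 71 libraries. Counting intervals are exact binomial at 95% and cover counting error only. The code was tested on simulated data.

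The study took 1 punch of each nucleus per chick, though labels name no chick. Members and lists were chosen with earlier results of these data known. Genes were named by a fixed rule: called genes with a symbol (there were none, so genes the study lists took their place), and, without a symbol, 2 per direction with the smallest adjusted p. Symbols came from the study's tables for 93 identifiers, and positions for 92 of them from RefSeq (GRCg7b) by symbol. Sequences were not used here.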

Additional observations from a re-analysis of the deposited data

Results flagged for a closer look

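Of 38 groups of 8 libraries checked, 11 had a highest library set apart from the others by Dixon's criterion. Its chance rate of about 1 in 20 groups is for like and separate values. Here each group mixed treatments and hours, and ND6 is part of the mitochondrial sum, so that rate does not apply. The values carry TMM factors. Of these 11, 6 were Sample_146, a control female of hour 12, at 204 CPM of TIMP2, 204 CPM of HSPA9, 417 CPM of ND6, 122 CPM of ATP6V1H, 164 CPM of ATP6V1C1 and 88653 CPM of the summed mitochondrially encoded mRNAs. Sample_125, a control male of hour 12, stood apart at 316 CPM of ND6 and 66348 CPM of the mitochondrial sum. Sample_29, an EHC female of hour 0, had 19.4 CPM of CHAD. OC3, an osteocalcin-like gene near the limit of detection, stood out at 2.19 CPM in the EHC female Sample_161 of hour 12 and at 0.842 CPM in the control male Sample_17 of hour 0.

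Outside the comparison, Sample_68, labelled an EHC male of hour 2, held 2626 CPM of the 68 genes limited to females, above the range of the 8 females used (2007 to 2416 CPM). The other hour-2 libraries of the nCPa lay on the side of their label.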

How the results depend on the processing

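Counts are given as the share of genes tested that were called, 2.18% in all, 0.707% higher and 1.47% lower in females. Fits of 1 hour or 1 treatment called fewer genes in all. They called 1.44% at hour 0 alone (0.712% higher, 0.732% lower) and 0.648% at hour 12 alone (0.403% higher, 0.246% lower). In EHC chicks alone 0.825% were called (0.422% higher, 0.403% lower) and in control chicks alone 0.712% (0.398% higher, 0.314% lower). The share higher in females at hour 0 alone was thus not below that of the main fit. Genes higher in females were 1.22% with DESeq2 and 1.28% with hour 2 added. Calls shared by edgeR and DESeq2 with an absolute log2 fold change over 1 were 1.02% in all and 0.383% lower. Leaving out 1 library gave 1.84% to 6.71% in all, 0.589% to 2.64% higher and 1.21% to 4.08% lower, the highest without Sample_146 and at most 2.46% in all otherwise; the cause was not tested. Other filters, size factors and covariates gave 411 to 452 genes. Sex by time, sex by treatment and sex by nucleus gave 0 calls under every alternative run, and leaving out libraries was not run for sex by nucleus. The 4 genes without a symbol kept their direction and their call under every alternative. Among the 17 genes refitted one by one under every alternative, sign changes came in uncalled genes: PSAT1 at hour 0 (0.27) and in control chicks (0.024), HSPA9 at hour 12 (0.058), VIPR1 at hour 12 (0.0054), ND6 with hour 2 added (-0.050) and at hour 0 (-0.17), ATP6V1C1 at hour 12 (0.015), and OC3 at hour 0 (-1.48) and in control chicks (-0.12), on the log2 scale. Without 1 library, PSAT1 ran from -0.14 to 0.055 and ND6 from -0.089 to 0.61. Without TMM factors the unadjusted permutation p of several named genes crossed 0.05, in both directions. Among others, it rose from 0.032 to 0.054 for LSM12, from 0.012 to 0.076 for STK25 and from 0.039 to 0.52 for XPO6. It fell from 0.062 to 0.048 for ATP6V1H, from 0.62 to 0.037 for CNOT4 and from 0.051 to 0.011 for KLHDC8A. For CHAD and TIMP2 it stayed below 0.05, at 0.034 and 0.032. TMM factors from genes outside Z and W were not run, since 92 genes had a position. Depth limits genes of low count most, and library numbers run in sets that may each be a chick: with the set as a block, sex by nucleus again gave 0 calls.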
